A study of Mus musculus with 7 samples.

Results

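The genes described here are 32 genes of glycolysis and of the response to hypoxia, measured in single-cell RNA libraries of mouse mammary tumors. They were taken by name from the 31017 gene symbols of the files, rows that shared a symbol were summed, and all 32 were found. The set holds 20 genes of glucose uptake, glycolysis and lactate handling, 11 hypoxia response genes and the HIF subunit gene Hif1a.

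The study compared tumor types that stand for luminal and basal-like breast cancer. BRCA1-null tumors arose spontaneously in mice with floxed Brca1 and Trp53 alleles (F/F) and a K14-Cre transgene, which acts in keratin 14 expressing cells. Neu tumors arose spontaneously in mice in which the MMTV promoter drives Neu in the mammary epithelium, from a strain crossed with mice carrying floxed FIP200 alleles, and the tumor of library Neu A had these alleles and no Cre. PyMT tumors were transplants of FF99WT, a line from 1 MMTV-PyMT tumor that carries floxed FIP200 alleles and no Cre, so transplantation and oncogene cannot be told apart. These tumors were on the FVB/NJ background, with 2 libraries (A and B) per type that the study describes as independent biological replicates. Both PyMT libraries came from the FF99WT line, so their spread is that of transplants of 1 line. In the tests it is pooled with the spread of the other types. The 4T1 tumor was a transplant of a GFP-marked line into BALB/C mice, with 1 library and another strain. Host mice were adult, no tumor was treated, and cells were sorted as CD24+ and negative for Ter119, CD31 and CD45.

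Glycolysis turns glucose into pyruvate, and cells that ferment pass the pyruvate on to lactate, which leaves through monocarboxylate transporters. When oxygen is scarce, prolyl hydroxylases no longer mark the alpha subunits of the hypoxia-inducible factor (HIF) for destruction by the VHL ligase, and HIF then binds promoters that hold the core motif ACGTG and raises many glycolytic enzymes together with genes of pH control, mitophagy and collagen hydroxylation. Both programs are known to be active in solid mammary tumors, and most glycolytic steps can be carried out by several isozymes that differ in tissue distribution and regulation.

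After filters of at least 1000 unique molecular identifiers (UMIs), at least 500 genes and under 20% mitochondrial UMIs, 12168 cells of 13745 barcodes remained. The libraries held 245 to 2308 cells and 5578911 to 37693300 UMIs, and BRCA1-null A was the smallest on both counts. The study sequenced replicates of each type in a second batch, and the letters A and B were read as these batches. Between libraries, 118 barcode sequences were shared. Cells with an Epcam UMI, where 1 was enough, made up 72.7% and 86.1% of BRCA1-null A and B and at least 97.3% of every other library. The summed level of 6 epithelial markers was 1156 counts per 1000000 UMIs (CPM) in BRCA1-null A, 6435 in BRCA1-null B and 5213 to 16691 in the others. Epcam alone was at 269 and 1888 CPM in BRCA1-null A and B and at least 1449 in the others. The sum of 6 fibroblast and pericyte markers was 275 and 1565 CPM in BRCA1-null A and B, 0.883 to 7.68 in PyMT and Neu and 28.2 in 4T1. All 6 (Col1a1, Col1a2, Col3a1, Pdgfra, Pdgfrb and Rgs5) were detected in both BRCA1-null libraries. The sum of 6 leukocyte markers was 24.0 and 30.9 CPM in BRCA1-null A and B and 1.37 to 9.82 elsewhere, with Lyz2 at 15.2 and 18.4 against at most 3.34, and Ptprc at or below 0.847 in all 7 libraries. The sum of 5 endothelial markers was 37.3 CPM in BRCA1-null A and 0.743 to 6.10 in the others. The part of these cells in the results was not tested beyond the values among cells with an Epcam UMI. In sums of this kind, fewer cells that express a gene and less of its RNA per cell cannot be told apart.

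Promoters of the members often held the HIF core motif. RefSeq promoter windows on GRCm38.p6 (250 bases before to 50 after a transcript start) were at hand for 31 of the 32 genes, all but Ndrg1. ACGTG on either strand was present in 26 of 45 windows of members (57.8%), against 19.6% of all 32851 windows of the table. Counted by gene, 23 of 31 members and 21.8% of all genes held it in a window. The motif is also part of CACGTG, the E-box read by other factors, and CACGTG itself was found in 6 of the 45 member windows and 7.15% of all windows. The 250 bases before the start are shown here for 6 hypoxia and lactate genes that differed between tumor types in the comparisons that follow, the first 3 lower and the last 3 higher in BRCA1-null, with ACGTG and its reverse complement CACGT in capitals.
Car9 (chr4:43506776-43507025, plus strand): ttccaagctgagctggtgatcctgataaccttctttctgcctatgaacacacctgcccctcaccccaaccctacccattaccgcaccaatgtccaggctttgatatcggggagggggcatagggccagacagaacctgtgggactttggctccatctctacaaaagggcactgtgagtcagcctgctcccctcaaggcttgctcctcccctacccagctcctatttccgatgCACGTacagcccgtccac
Egln3 (chr12:54203875-54204124, minus strand): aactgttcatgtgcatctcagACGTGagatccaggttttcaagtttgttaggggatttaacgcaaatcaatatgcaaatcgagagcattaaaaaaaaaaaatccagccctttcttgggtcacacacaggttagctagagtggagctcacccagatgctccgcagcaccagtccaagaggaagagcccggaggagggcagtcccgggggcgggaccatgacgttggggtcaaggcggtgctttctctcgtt
Bnip3 (chr7:138909507-138909756, minus strand): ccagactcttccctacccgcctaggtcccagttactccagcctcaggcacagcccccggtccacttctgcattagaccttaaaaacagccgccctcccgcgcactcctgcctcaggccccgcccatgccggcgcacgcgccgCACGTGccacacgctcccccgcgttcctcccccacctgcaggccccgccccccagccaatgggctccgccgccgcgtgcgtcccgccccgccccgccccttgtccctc
P4ha1 (chr10:59323046-59323295, plus strand): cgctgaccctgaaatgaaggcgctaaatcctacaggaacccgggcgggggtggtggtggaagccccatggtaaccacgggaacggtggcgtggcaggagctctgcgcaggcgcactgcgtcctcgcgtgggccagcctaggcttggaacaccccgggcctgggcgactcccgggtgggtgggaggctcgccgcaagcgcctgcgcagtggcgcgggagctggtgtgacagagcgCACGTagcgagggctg
Slc16a3 (chr11:120948817-120949066, plus strand): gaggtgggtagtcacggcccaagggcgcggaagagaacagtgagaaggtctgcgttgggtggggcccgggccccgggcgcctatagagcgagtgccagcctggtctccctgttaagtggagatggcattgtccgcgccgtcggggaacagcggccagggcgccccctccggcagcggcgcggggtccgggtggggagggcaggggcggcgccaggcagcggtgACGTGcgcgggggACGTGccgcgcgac
Adm (chr7:110627407-110627656, plus strand): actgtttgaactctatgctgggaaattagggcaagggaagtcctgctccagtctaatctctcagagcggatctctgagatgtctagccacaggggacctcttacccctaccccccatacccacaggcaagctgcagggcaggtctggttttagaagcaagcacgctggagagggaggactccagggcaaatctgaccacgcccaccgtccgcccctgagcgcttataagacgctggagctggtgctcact
Car9, Egln3 and P4ha1 each held 1 motif, at -18, -229 and -16 counted from the start, with -1 for the last base before it. In Slc16a3 motifs began at -27 and -14, and the overlapping pair in Bnip3 formed 1 E-box. Adm held none in this window. The motif was found both in genes that were lower and in genes that were higher in BRCA1-null tumors, and a match of letters does not show binding.

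More members were called in the comparisons of BRCA1-null with the other types than between PyMT and Neu, and they did not move in 1 direction. UMIs were summed per library and compared with edgeR's quasi-likelihood test, with Benjamini-Hochberg adjustment over the 13950 genes tested, at an adjusted p under 0.05. All 32 members passed the filter on low counts. Against PyMT, 5 members were higher and 10 lower in BRCA1-null. Of all genes tested 14.5% were called higher and 7.94% lower in this contrast, so the members called higher were near the background in number and those called lower above it. Against Neu, 6 members were higher and 10 lower, beside 16.3% and 12.8% of all genes. PyMT and Neu differed in 6 members, 4 higher and 2 lower in PyMT, where 7.5% and 9.38% of all genes were called. Whether these shares differ from the background was not tested. In total 19 members were called in at least 1 contrast and 13 in none by edgeR. Of those 13, DESeq2's Wald test called Hk1, Pfkm, Pgk1, Ldhb and Ndrg1 in at least 1 contrast.

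**Figure D1:**
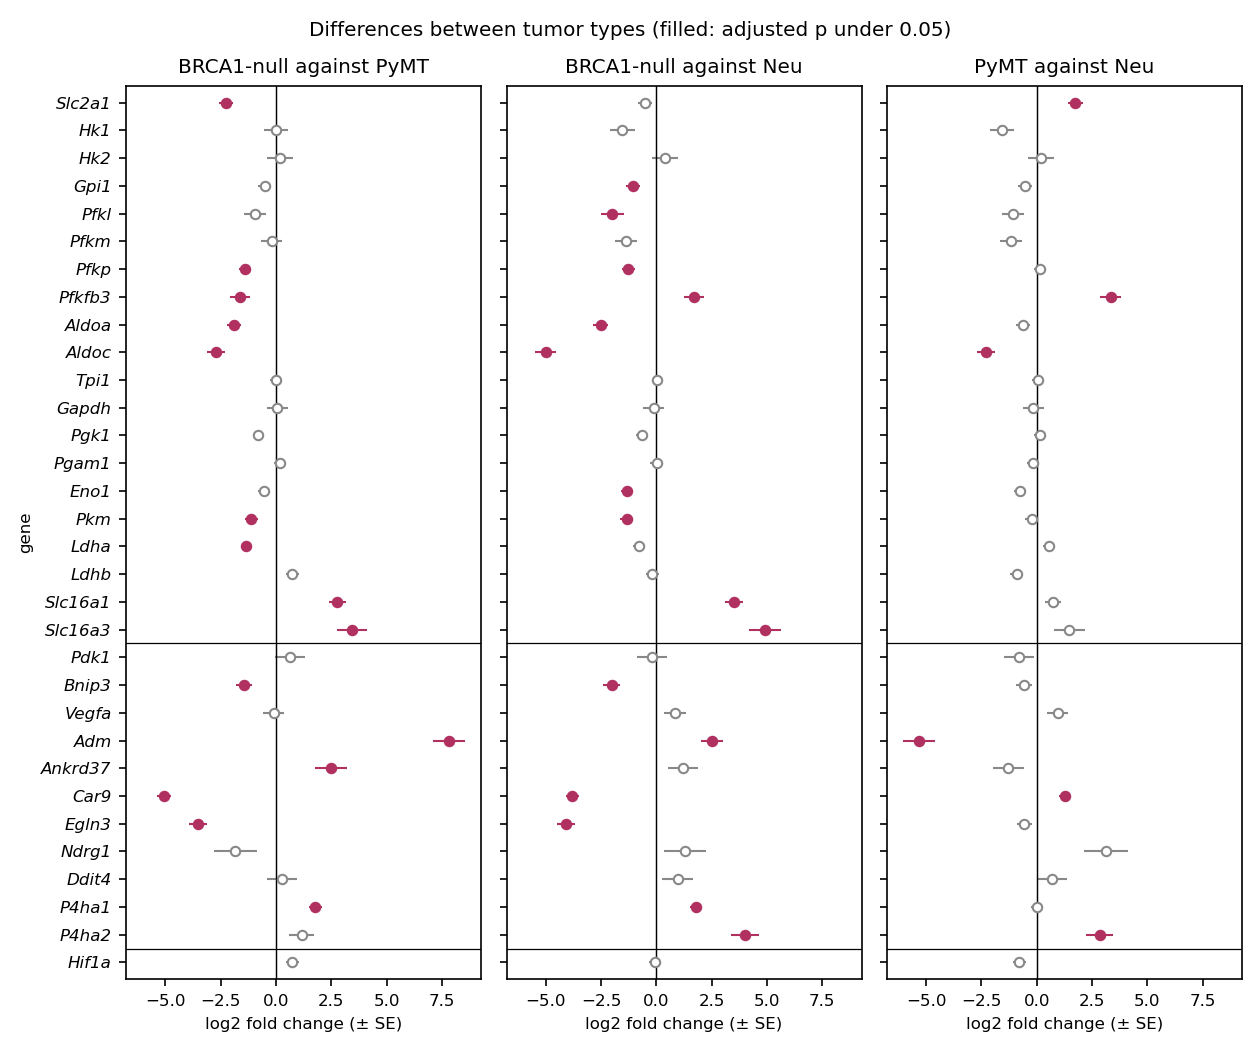
Log2 fold change (x axis, ± SE from edgeR's quasi-likelihood fit) of the 32 genes (y axis) in the 3 contrasts, with filled points at an adjusted p under 0.05. Car9, Egln3, Aldoa and Aldoc lie to the left and Slc16a1, Slc16a3, Adm and P4ha1 to the right in both contrasts of BRCA1-null, while Tpi1, Gapdh, Pgk1 and Pgam1 have open points throughout.

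Of the 20 glycolysis and lactate genes more were lower than higher in BRCA1-null, 7 lower and 2 higher against PyMT and 7 lower and 3 higher against Neu. DESeq2's Wald test called 8 and 11 of them lower, beside 1578 and 2107 of all 13950 genes tested. The median log2 fold change of the 20 genes in the edgeR fit was -0.54 against PyMT and -0.72 against Neu, beside 0.11 and 0.11 over all genes tested. Of the 11 hypoxia genes 3 were called higher and 3 lower in each of these contrasts, with 6 and 7 positive fold changes and medians of 0.27 and 0.96. In all 37 calls the libraries of the types compared did not overlap, which by itself gives the same sign within batch A and within batch B. Libraries also did not overlap in 31 of the 59 differences that were not called. The share of such differences over all genes was not computed, so these counts do not set the members apart. The calls rested on the spread of few libraries. Omission of any library leaves 1 sample in its type. Without a PyMT or Neu library many of the 37 calls were lost, and calls over all genes fell as well. Without a BRCA1-null library few were lost, and the total of calls over all genes fell in no contrast. The reason for this difference was not tested. The median log2 fold change of the 20 glycolysis and lactate genes against PyMT was -0.64 without PyMT A and -0.47 without PyMT B. Against Neu it was -0.82 without Neu A and -0.76 without Neu B. Scaling by total UMIs alone moved the median of all genes from 0.11 to 0.47 against PyMT. It gave 7 members higher and 7 lower there, beside 2656 and 652 of all 13950 genes.

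Glucose enters most cells through Slc2a1, the GLUT1 transporter, and Slc2a1 was highest in PyMT. It measured 35.8 and 57.6 CPM in the BRCA1-null libraries A and B, 208 and 241 in the PyMT libraries, 75.6 and 58.1 for Neu, and 36.5 in 4T1 (95% counting interval 34.0 to 39.0). Both PyMT libraries stood above all others, and BRCA1-null B lay next to Neu B. Slc2a1 was lower in BRCA1-null than in PyMT (log2 fold change -2.26, SE 0.33, adjusted p = 0.00872) and higher in PyMT than in Neu (log2 fold change 1.75, SE 0.33, adjusted p = 0.0171). The difference between BRCA1-null and Neu did not pass the test (adjusted p = 0.264, edgeR). Both calls were lost without PyMT A (adjusted p = 0.0536 and 0.0907) or without PyMT B (0.0672 and 0.109), and the second also without Neu A (0.104) or Neu B (0.135).

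Hexokinases trap glucose in the cell by phosphorylation, and neither Hk1 nor Hk2 was called by edgeR in any contrast. Hk1, the widely expressed form, was at 68.4 and 19.8 CPM in BRCA1-null, 39.6 and 46.8 for PyMT, 145 and 109 for Neu, and 22.3 (20.4 to 24.3) in 4T1. Hk2, the inducible form, was at 15.6 and 37.0 CPM in BRCA1-null, 15.6 and 31.2 for PyMT, 12.2 and 28.5 for Neu, and 29.4 (27.2 to 31.7) in 4T1. The 2 BRCA1-null libraries differed more from each other in Hk1 than either did from PyMT, and the B library of each type was above its A library in Hk2. Hk1 was below the Neu level in BRCA1-null and in PyMT with adjusted p of 0.0768 and 0.0972 by edgeR. These were 0.0311 and 0.0393 by DESeq2's Wald test and 0.000469 and 0.000972 by edgeR without the filter on low counts. The fit without the filter used the same counts of Hk1 but shared its estimate of spread over 20388 genes, many with few UMIs. Its smaller p is no better measure of the spread between tumors.

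Enzymes of the next steps were lower in BRCA1-null than in Neu. Gpi1 turns glucose 6-phosphate into fructose 6-phosphate and was at 211 and 129 CPM in BRCA1-null, 237 and 249 for PyMT, 339 and 362 for Neu, and 151 (146 to 157) in 4T1. BRCA1-null was lower than Neu (log2 fold change -1.05, SE 0.31, adjusted p = 0.0448), but the call was lost with total UMIs alone (adjusted p = 0.126), in cells with an Epcam UMI (0.0508) and at a 10% mitochondrial limit (0.0514), and held with no omission of a library but that of BRCA1-null A (adjusted p from 0.0118 to 0.176). Phosphofructokinase catalyses the committed step, and its subunit Pfkl was at 104 and 39.1 CPM in BRCA1-null, 135 and 137 for PyMT, 359.6 and 203 for Neu, and 56.0 (53.0 to 59.1) in 4T1. Pfkl was lower in BRCA1-null than in Neu (log2 fold change -1.98, SE 0.51, adjusted p = 0.0295), a call that total UMIs alone took to an adjusted p of 0.0562 and omission of PyMT A, PyMT B, Neu A or Neu B to values from 0.0622 to 0.155. The platelet-type subunit Pfkp was at 25.5 and 37.3 CPM in BRCA1-null, 88.9 and 77.5 for PyMT, 76.1 and 74.9 for Neu, and 35.2 (32.9 to 37.8) in 4T1. Every BRCA1-null library, and 4T1, lay below every PyMT and Neu library in Pfkp (log2 fold change -1.40, SE 0.29, adjusted p = 0.0200 against PyMT and log2 fold change -1.26, SE 0.29, adjusted p = 0.0207 against Neu). Both calls were lost without PyMT A, PyMT B, Neu A or Neu B (adjusted p from 0.0516 to 0.123 against PyMT and 0.0507 to 0.108 against Neu). Pfkm, the muscle form, stayed at or below 16.1 CPM in every library. For BRCA1-null against Neu its adjusted p was 0.0776 by edgeR, 0.0140 without the filter on low counts and 0.0447 by DESeq2's Wald test. The limit given for Hk1 holds for the fit without the filter here as well.

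Pfkfb3 makes fructose 2,6-bisphosphate, the activator of phosphofructokinase, and it was called in all 3 contrasts, as were Aldoc, Adm and Car9. It measured 5.96 and 6.12 CPM in the BRCA1-null libraries A and B, 26.2 and 11.6 in the PyMT libraries, 1.85 and 1.86 for Neu, and 6.51 in 4T1 (95% counting interval 5.50 to 7.64). The order was PyMT, BRCA1-null and Neu without overlap. PyMT was above Neu (log2 fold change 3.34, SE 0.48, adjusted p = 0.00843) and BRCA1-null was above Neu (log2 fold change 1.70, SE 0.46, adjusted p = 0.0346). The difference of BRCA1-null from PyMT (log2 fold change -1.64, SE 0.45, adjusted p = 0.0429) was lost with the replicate block, at an adjusted p of 0.0555, with total UMIs alone (0.0886) and with any of the 6 libraries left out (adjusted p from 0.0641 to 0.272). The call of BRCA1-null against Neu was lost without BRCA1-null B (0.0676), Neu A (0.166) or Neu B (0.166), and that of PyMT against Neu without PyMT A (0.0547), Neu A (0.0798) or Neu B (0.0729).

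Aldolase splits the hexose into trioses, and both of its genes were lower in BRCA1-null. Aldoa, the ubiquitous form, was at 402 and 493 CPM in the BRCA1-null libraries A and B, 1706 and 1619.9 in the PyMT libraries, 2038 and 3098 for Neu, and 651 in 4T1 (95% counting interval 641 to 662). All 4 PyMT and Neu libraries stood above both BRCA1-null libraries and 4T1. BRCA1-null was lower than PyMT (log2 fold change -1.89, SE 0.33, adjusted p = 0.0129) and lower than Neu (log2 fold change -2.52, SE 0.33, adjusted p = 0.00443). Aldoc, the form best known from brain, was at 158 and 74.6 CPM in the BRCA1-null libraries A and B, 771 and 754 in the PyMT libraries, 4125 and 3316 for Neu, and 46.1 in 4T1 (95% counting interval 43.3 to 48.9). The Neu libraries were far above the rest, and the mean levels were 3720.4 ± 572 CPM (SD, n = 2) in Neu, 762 ± 12.3 in PyMT and 116 ± 58.7 in BRCA1-null. Aldoc was lower in BRCA1-null than in Neu (log2 fold change -5.00, SE 0.47, adjusted p = 0.00229) and than in PyMT (log2 fold change -2.72, SE 0.42, adjusted p = 0.00986), and lower in PyMT than in Neu (log2 fold change -2.29, SE 0.41, adjusted p = 0.0152). Of these aldolase calls, those of BRCA1-null against Neu held with each library left out, and those against PyMT were lost without PyMT A (adjusted p = 0.0813 for Aldoa and 0.0610 for Aldoc) or PyMT B (0.0786 and 0.0643). The Aldoc call of PyMT against Neu was lost without any of the 4 libraries compared (adjusted p from 0.0695 to 0.122).

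The triose steps varied less between the types. Tpi1, Gapdh, Pgk1 and Pgam1 interconvert trioses, oxidise glyceraldehyde 3-phosphate, yield ATP and shift the phosphate, and none of them was called by edgeR. DESeq2's Wald test called Pgk1 lower in BRCA1-null than in PyMT (log2 fold change -0.81, adjusted p = 0.00903) and than in Neu (-0.63, adjusted p = 0.0433), where edgeR gave 0.0655 and 0.0946. Over the 6 libraries of the 3 types Tpi1 ranged from 437 to 544 CPM, Pgk1 from 297 to 542 and Pgam1 from 204 to 298. Gapdh ranged from 1453 in Neu A to 3607 CPM in Neu B, so that its extremes lay within 1 tumor type. Eno1, the enolase of most tissues, was at 415 and 407 CPM in BRCA1-null, 554 and 653 for PyMT, 937 and 1113 for Neu, and 536 (526 to 545) in 4T1. Eno1 was lower in BRCA1-null than in Neu (log2 fold change -1.32, SE 0.27, adjusted p = 0.0148), and without Neu A or Neu B its adjusted p was 0.0713 and 0.0987. Reads of Gapdh, Eno1 and other abundant enzymes can be shared with near-identical copies such as Eno1b, which was at most 9.57 CPM here.

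The last step, pyruvate kinase, was lower in BRCA1-null than in both other types. Pkm was at 608 and 547 CPM in BRCA1-null, 1196 and 1317 for PyMT, 1696 and 1241 for Neu, and 836 (825 to 848) in 4T1. The difference was -1.12 (SE 0.29, adjusted p = 0.0361) on the log2 scale against PyMT and -1.35 (SE 0.29, adjusted p = 0.0177) against Neu. The first of these was lost with total UMIs alone (adjusted p = 0.132) and without any 1 of the PyMT or Neu libraries (adjusted p from 0.0635 to 0.177), and the second without Neu A (0.114) or Neu B (0.0575). Muscle and embryonic splice forms of Pkm are not separated by counts of 3' ends.

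**Figure D2:**
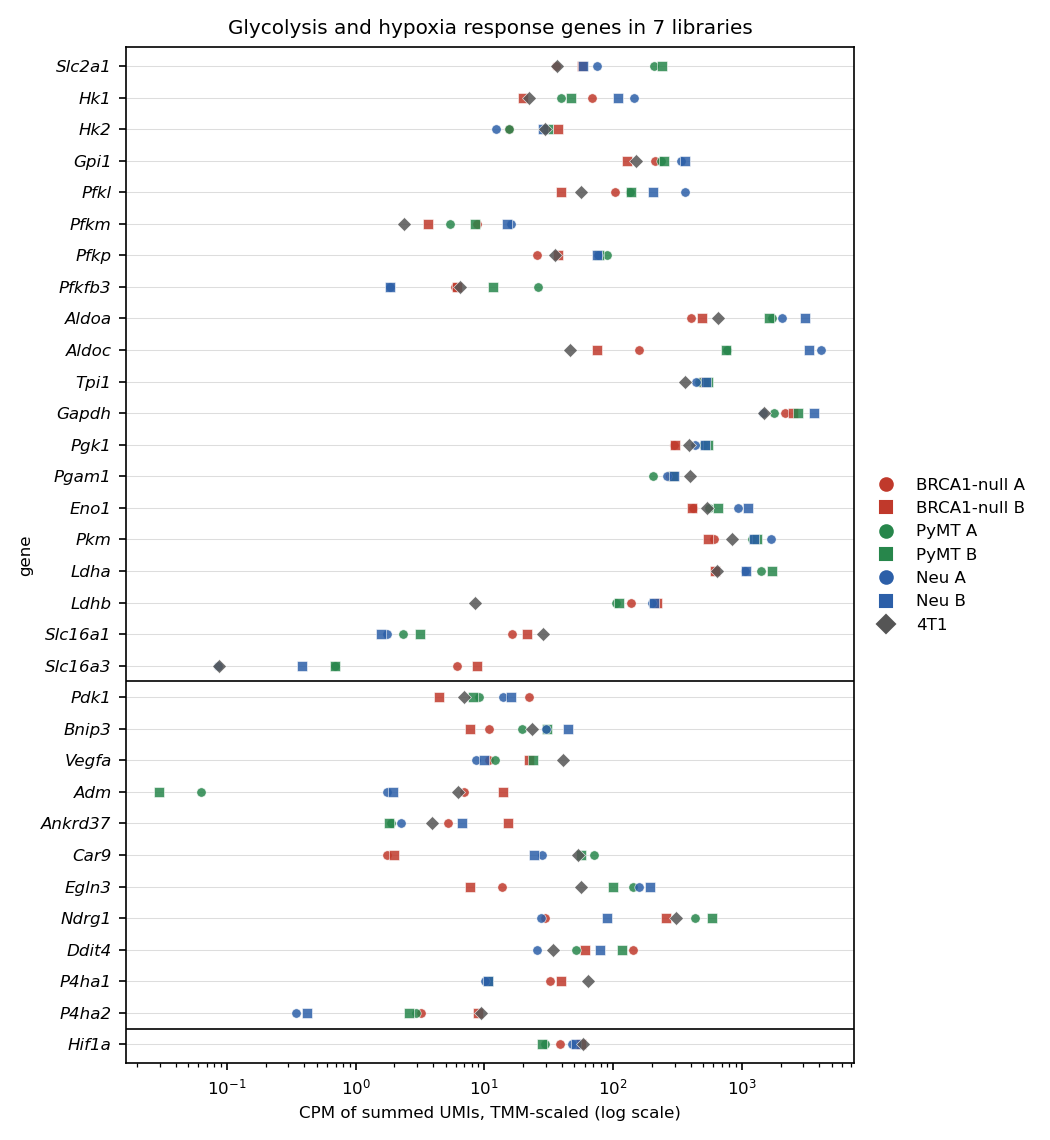
Level of each gene (y axis) in the 7 libraries, as CPM of summed UMIs scaled by TMM, on a log axis. Horizontal lines part glycolysis, hypoxia genes and Hif1a. Aldoc spans 46.1 CPM in 4T1 to 4125 in Neu A, whereas the 7 points of Tpi1 lie between 364 and 544.

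Lactate dehydrogenase reduces pyruvate (Ldha, the form of glycolytic tissues) or favors the reverse reaction (Ldhb, the heart form). Ldha was at 619.7 and 622 CPM in BRCA1-null, 1419.9 and 1715 for PyMT, 1061 and 1076 for Neu, and 641 (631 to 652) in 4T1. PyMT held the highest 2 values, BRCA1-null was lower than PyMT (log2 fold change -1.34, SE 0.27, adjusted p = 0.0188), and without PyMT A or PyMT B the adjusted p was 0.0893 and 0.123. Ldhb was at 139 and 219.6 CPM in BRCA1-null, 106 and 111 for PyMT, 199 and 208 for Neu, and 8.52 (7.36 to 9.80) in 4T1. Ldhb was not called between the types (adjusted p = 0.125, 0.665 and 0.0813 for BRCA1-null against PyMT, BRCA1-null against Neu and PyMT against Neu, edgeR), and 4T1 lay far below all 6 other libraries. For PyMT against Neu the adjusted p was 0.0470 by DESeq2's Wald test and 0.0417 with total UMIs alone, which also gave 0.0334 for BRCA1-null against PyMT. For Ldha in BRCA1-null against Neu DESeq2's Wald test gave 0.0104 and edgeR 0.0659.

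BRCA1-null tumors held more RNA of both lactate transporters than PyMT and Neu tumors. Slc16a1 (MCT1), which carries lactate and protons in either direction, was at 16.3 and 21.5 CPM in the BRCA1-null libraries A and B, 2.32 and 3.17 in the PyMT libraries, 1.76 and 1.57 for Neu, and 28.4 in 4T1 (95% counting interval 26.2 to 30.7). Both BRCA1-null libraries and 4T1 exceeded 16 CPM, and no PyMT or Neu library exceeded 3.17. Slc16a1 was higher in BRCA1-null than in PyMT (log2 fold change 2.78, SE 0.38, adjusted p = 0.00684) and than in Neu (log2 fold change 3.51, SE 0.39, adjusted p = 0.00287). Slc16a3 (MCT4), the exporter typical of glycolytic cells, was at 6.11 and 8.71 CPM in the BRCA1-null libraries A and B, 0.689 and 0.687 in the PyMT libraries, 0.0859 and 0.384 for Neu, and 0.0874 in 4T1 (95% counting interval 0.0106 to 0.316). These are low counts, at most 272 UMIs in a library, with 2 UMIs each in Neu A and 4T1. Slc16a3 was higher in BRCA1-null than in PyMT (log2 fold change 3.43, SE 0.66, adjusted p = 0.0169) and than in Neu (log2 fold change 4.90, SE 0.72, adjusted p = 0.00597). In BRCA1-null A, the level was 7.76 CPM in cells with an Epcam UMI and 6.38 in cells without one. In BRCA1-null B, it was 8.77 CPM in cells with an Epcam UMI and 14.8 in cells without one (plain CPM), and all 4 transporter calls held among cells with an Epcam UMI. Against Neu they also held with each library left out, whereas against PyMT they were lost without PyMT A (adjusted p = 0.0672 for Slc16a1 and 0.123 for Slc16a3) or PyMT B (0.0591 and 0.123).

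Among the hypoxia genes, Car9 and Egln3 were lower in BRCA1-null than in both other types. Car9, the membrane carbonic anhydrase that buffers acid outside the cell and a widely used hypoxia marker, was at 1.75 and 1.98 CPM in the BRCA1-null libraries A and B, 70.5 and 56.3 in the PyMT libraries, 28.0 and 24.4 for Neu, and 53.8 in 4T1 (95% counting interval 50.8 to 56.9). The lowest of the PyMT, Neu and 4T1 values was far above both BRCA1-null libraries. Car9 was lower in BRCA1-null than in PyMT (log2 fold change -5.06, SE 0.33, adjusted p = 0.00153) and than in Neu (log2 fold change -3.79, SE 0.31, adjusted p = 0.00198), and it was higher in PyMT than in Neu (log2 fold change 1.27, SE 0.27, adjusted p = 0.0240). Egln3 (PHD3), a prolyl hydroxylase that is itself a HIF target, was at 13.7 and 7.68 CPM in the BRCA1-null libraries A and B, 142 and 99.2 in the PyMT libraries, 159 and 195 for Neu, and 56.1 in 4T1 (95% counting interval 53.1 to 59.2). Egln3 was lower in BRCA1-null than in PyMT (log2 fold change -3.51, SE 0.40, adjusted p = 0.00428) and than in Neu (log2 fold change -4.07, SE 0.41, adjusted p = 0.00246). The 4 calls of BRCA1-null for Car9 and Egln3 held with each of the 6 libraries left out, with adjusted p of at most 0.0402 and 0.0218 for Car9 and 0.0418 and 0.0251 for Egln3 against PyMT and Neu. The call of Car9 between PyMT and Neu was lost without any of the 4 libraries compared (adjusted p from 0.105 to 0.187).

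Bnip3, a mitochondrial outer membrane receptor for mitophagy, was at 10.9 and 7.78 CPM in BRCA1-null, 19.6 and 30.6 for PyMT, 30.3 and 44.2 for Neu, and 23.6 (21.7 to 25.7) in 4T1. Bnip3 was lower in BRCA1-null than in PyMT (log2 fold change -1.44, SE 0.38, adjusted p = 0.0372) and than in Neu (log2 fold change -2.01, SE 0.38, adjusted p = 0.0122). The first call was lost with total UMIs alone (adjusted p = 0.0976) and without BRCA1-null B, PyMT A, PyMT B, Neu A or Neu B (adjusted p from 0.0256 to 0.210 over the 6 omissions), and the second without Neu B (0.0863). Pdk1, the kinase that keeps pyruvate out of the mitochondrial matrix reactions by blocking pyruvate dehydrogenase, was at 22.4 and 4.45 CPM in BRCA1-null, 9.02 and 8.18 for PyMT, 13.9 and 16.2 for Neu, and 6.94 (5.91 to 8.11) in 4T1. It was not called, and the BRCA1-null libraries held both its highest and its lowest value.

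Other hypoxia genes were higher in BRCA1-null, Adm against both types and Ankrd37 against PyMT. Adm, which encodes the vasodilator peptide adrenomedullin, was at 6.98 and 13.9 CPM in the BRCA1-null libraries A and B, 0.0626 and 0.0299 in the PyMT libraries, 1.76 and 1.95 for Neu, and 6.29 in 4T1 (95% counting interval 5.30 to 7.40). PyMT held 1 UMI of Adm in each library, and the pooled BRCA1-null level was 313 times that of PyMT, with an exact counting interval from 86.1 to 2589. The difference from PyMT was called for BRCA1-null (adjusted p = 0.00277) and for Neu (adjusted p = 0.00716), and BRCA1-null was above Neu (log2 fold change 2.50, SE 0.49, adjusted p = 0.0136). The first held with each library left out, the second was lost without PyMT A (0.0535) or PyMT B (0.0728), and the third without Neu A (0.105) or Neu B (0.0974). Ankrd37, a small ankyrin repeat protein induced by HIF, was at 5.24 and 15.4 CPM in BRCA1-null, 1.88 and 1.82 for PyMT, 2.23 and 6.72 for Neu, and 3.89 (3.12 to 4.78) in 4T1. Against Neu, Ankrd37 was not called by edgeR (log2 fold change 1.22), and BRCA1-null A lay below Neu B. It was higher in BRCA1-null than in PyMT (log2 fold change 2.50, SE 0.71, adjusted p = 0.0481), and this was kept with no omission but that of BRCA1-null A (adjusted p from 0.0156 to 0.217 over the 6 omissions).

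P4ha1 and P4ha2 are catalytic subunits of prolyl 4-hydroxylase, which modifies collagen. P4ha1 was at 32.6 and 39.4 CPM in the BRCA1-null libraries A and B, 10.5 and 10.6 in the PyMT libraries, 10.1 and 10.8 for Neu, and 63.3 in 4T1 (95% counting interval 60.1 to 66.7). The 4 PyMT and Neu libraries agreed within 10.1 to 10.8 CPM, and BRCA1-null was higher than PyMT (log2 fold change 1.77, SE 0.29, adjusted p = 0.0111) and than Neu (log2 fold change 1.79, SE 0.29, adjusted p = 0.00763). P4ha2 was at 3.20 and 8.93 CPM in the BRCA1-null libraries A and B, 2.94 and 2.60 in the PyMT libraries, 0.344 and 0.416 for Neu, and 9.43 in 4T1 (95% counting interval 8.22 to 10.8). BRCA1-null was higher than Neu (log2 fold change 4.00, SE 0.65, adjusted p = 0.00786), PyMT was higher than Neu (log2 fold change 2.84, SE 0.63, adjusted p = 0.0272), and BRCA1-null did not pass against PyMT (adjusted p = 0.184, edgeR). Fibroblast and pericyte markers were high in the same BRCA1-null libraries. In BRCA1-null A, P4ha1 was at 38.4 CPM in cells with an Epcam UMI and 48.9 without one, and P4ha2 at 3.67 and 5.31. In BRCA1-null B, P4ha1 was at 36.5 CPM in cells with an Epcam UMI and 108 without one, and P4ha2 at 8.11 and 26.4 (plain CPM). Among cells with an Epcam UMI alone, the log2 fold changes of P4ha1 were still 1.64 and 1.66 and that of P4ha2 against Neu 3.82, all called. The P4ha1 call against PyMT was lost without PyMT A (0.0963) or PyMT B (0.0943), those of P4ha1 and P4ha2 against Neu without Neu A (0.0763 and 0.0730) or Neu B (0.0690 and 0.0667), and the P4ha2 call between PyMT and Neu without any of the 4 libraries compared (adjusted p from 0.112 to 0.177).

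Vegfa, Ndrg1, Ddit4 and Hif1a were not called by edgeR in any contrast. Vegfa, the angiogenic growth factor, ranged from 8.68 to 24.1 CPM in the 6 libraries, and Ddit4, an inhibitor of mTORC1 signaling, from 25.4 to 144. Ndrg1, a stress-responsive gene, was uneven between libraries of 1 type. It measured 29.4 and 257 CPM in BRCA1-null, 430.1 and 591 for PyMT, 27.5 and 88.9 for Neu, and 309.6 (302 to 317) in 4T1. With the replicate block Ndrg1 was called lower in BRCA1-null than in PyMT (adjusted p = 0.0459) and higher in PyMT than in Neu (0.0238), against 0.213 and 0.0775 without it. DESeq2's Wald test also called it higher in PyMT than in Neu (adjusted p = 0.00286), and edgeR without the filter on low counts called it in all 3 contrasts (adjusted p = 0.000378 and 0.0185 for BRCA1-null against PyMT and against Neu, and 1.24e-08 for PyMT against Neu). The fit without the filter used the same uneven counts of Ndrg1 and shared its estimate of spread with many genes of few UMIs. Its p values are no measure of the spread between tumors. Hif1a encodes a subunit that is controlled mainly at the protein level. Its RNA was at 38.5 and 56.6 CPM in BRCA1-null, 29.4 and 28.0 for PyMT, 47.7 and 51.2 for Neu, and 58.1 (55.1 to 61.3) in 4T1, with adjusted p of 0.109, 0.903 and 0.103 for BRCA1-null against PyMT, BRCA1-null against Neu and PyMT against Neu, and total UMIs alone gave 0.0326 for the first. Reads from the gene Gm49321, which overlaps Hif1a, and from Gm26513, which overlaps Pfkm, may not be separable from these.

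The tumor types did not overlap in their shares of isozymes of aldolase, lactate dehydrogenase and prolyl 4-hydroxylase. For prolyl 4-hydroxylase the gap between BRCA1-null B and PyMT B was within counting error. Aldoc made up 66.9% and 51.7% of aldolase UMIs in Neu, 31.1% and 31.8% for PyMT, 28.2% and 13.1% in BRCA1-null and 6.61% (6.23 to 7.0) in 4T1, where the range is the exact Clopper-Pearson 95% interval. In both Neu libraries, and in no other, Aldoc UMIs outnumbered those of Aldoa. Ldhb made up 18.3% and 26.1% of lactate dehydrogenase UMIs in BRCA1-null, 15.8% and 16.2% in Neu, 6.94% and 6.06% for PyMT and 1.31% (1.13 to 1.51) in 4T1. P4ha2 made up 22.0% and 19.7% of the family in PyMT, 8.94% and 18.5% in BRCA1-null, 3.31% and 3.72% in Neu and 13.0% (11.4 to 14.7) in 4T1. The intervals of PyMT B (16.1 to 23.7) and BRCA1-null B (16.6 to 20.5) overlapped. In an exact permutation test over the 15 ways to pair 6 libraries, each of these families reached p = 0.0667, the smallest p the design allows, or 0.133 after adjustment over the 6 families, so the design could not reach 0.05.

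In the other families the spread within a type was of the size of the difference between types. Hk2 made up 18.5% and 65.1% of hexokinase UMIs in BRCA1-null, 28.3% and 40.0% for PyMT, 7.77% and 20.8% in Neu and 56.8% (53.9 to 59.6) in 4T1. The mean of BRCA1-null exceeded that of Neu by 27.6 percentage points, but by 50.9 without BRCA1-null A and 4.26 without BRCA1-null B (exact permutation p = 0.467). Pfkp made up 18.5% and 46.6% of phosphofructokinase UMIs in BRCA1-null, 38.8% and 34.8% for PyMT, 16.9% and 25.6% in Neu and 37.7% (35.6 to 39.7) in 4T1 (exact permutation p = 0.533). Pfkl held the largest share in every library. Slc16a3 made up 27.3% and 28.8% of the UMIs of both transporters in BRCA1-null, 22.9% and 17.8% for PyMT, 4.65% and 19.7% in Neu and 0.307% (0.0372 to 1.10) in 4T1 (exact permutation p = 0.267). The Slc16a3 share of Neu rested on 43 and 61 UMIs, and the difference of BRCA1-null from Neu was 15.9 percentage points, 8.39 without Neu A and 23.4 without Neu B.

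**Figure D3:**
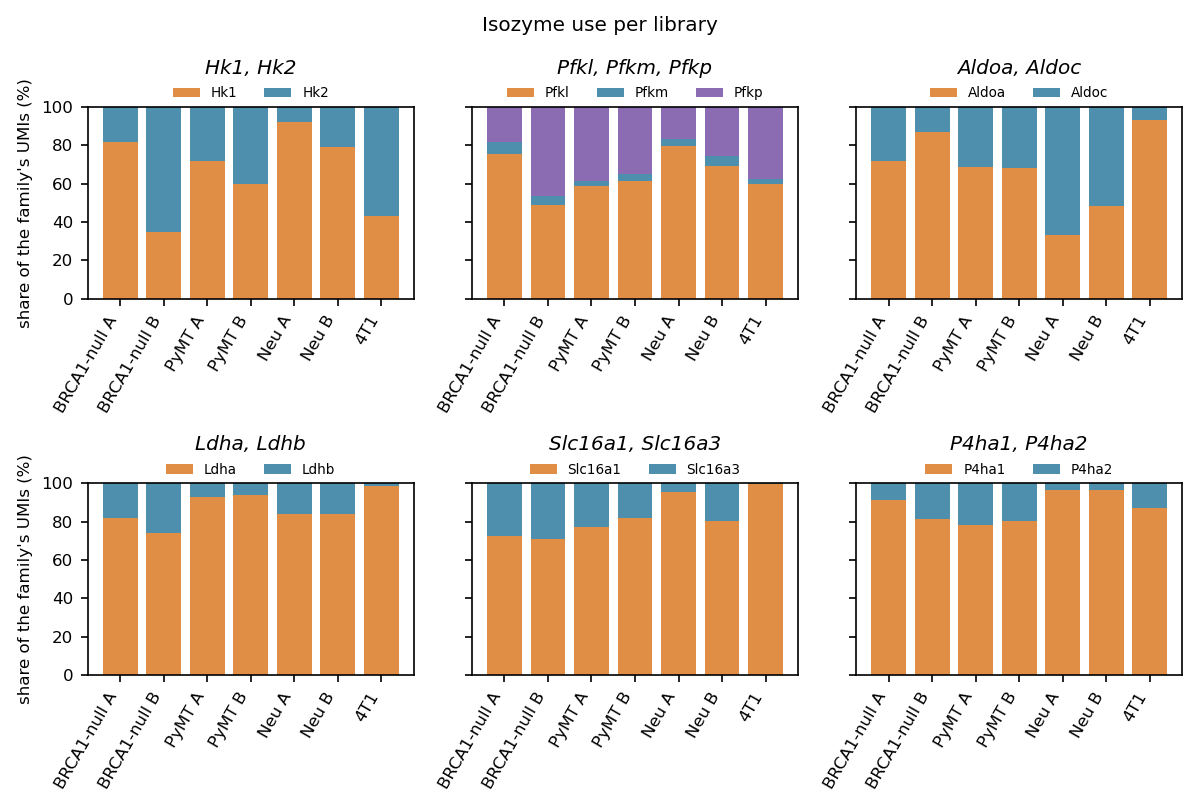
Share of each isozyme (stacked bars, percent of the UMIs of its family) in the 7 libraries, 1 panel per family. Aldoc exceeds 50% in both Neu libraries, Ldhb is at 1.31% in 4T1, and the Hk2 share differs most between the BRCA1-null libraries.

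The 4T1 tumor is 1 library with no replicate check, and line, strain and transplantation cannot be told apart in it. Of the 32 members 22 lay within the range of the other 6 libraries, 6 above it and 4 below it. Above it were Pgam1, Slc16a1, Vegfa, P4ha1, P4ha2 and Hif1a, and below it Pfkm, Aldoc, Tpi1 and Ldhb. The share of all genes outside this range was not computed, so these counts do not set the members apart. Vegfa was at 40.8 CPM (38.2 to 43.5) against at most 24.1 elsewhere, and P4ha1 at 63.3 against at most 39.4. Ldhb was at 8.52 CPM (7.36 to 9.80) against at least 106. Its Car9 lay above both Neu libraries, while its Aldoa, Ldha and Slc2a1 lay below every PyMT and Neu library. Slc16a1 was high and Slc16a3 was at 2 UMIs. The intervals cover counting error only.

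Between cells of a library, the abundant enzymes varied together. Each cell was thinned to 3000 UMIs, which kept 11474 cells and left out 694, and Pearson's r was computed across cells of each library on log(1 + UMIs). Cells of 1 library share their depth, so r is given as a description. The 8 enzymes Aldoa, Tpi1, Gapdh, Pgk1, Pgam1, Eno1, Pkm and Ldha, picked after the values were seen, formed the block of higher values, with a median r over libraries of 0.152 to 0.358 in their 28 pairs. The highest pairs were Gapdh with Pgk1, at 0.358, and Gapdh with Eno1, at 0.328. Correlated with the sum of the other glycolysis members, Aldoa had a median r of 0.445 over the 7 libraries, Pgk1 0.416, Gapdh 0.411 and Ldha 0.394. For Aldoa the values ran from -0.0416 in BRCA1-null A, which had only 222 thinned cells, to 0.515. Over 3055 genes with a UMI in at least 5% of thinned cells of every library, the median was 0.00845 and the 95th percentile 0.0625.

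Other glycolysis members had lower values. Aldoc had a median r of 0.0728 with the other glycolysis members and Ldhb 0.0751, both above the 95th percentile of all genes, while Hk2 had -0.0146 and Slc2a1 0.0272. The values ran from -0.123 to 0.133 for Aldoc and from -0.0169 to 0.129 for Ldhb. In Neu A and B, Aldoc had 0.0201 and -0.123. Aldoa and Aldoc varied with each other at r of -0.0633 to 0.144, and the 2 negative values were those of Neu A and Neu B, where Aldoc was most abundant. Ldha and Ldhb varied at -0.0100 to 0.108. Sparse members such as Pfkm, Slc16a3, Adm and Ankrd37 had a UMI in few cells, with medians over libraries of 1.41%, 0.162%, 0.616% and 1.31% of thinned cells, so their low r says little.

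**Figure D4:**
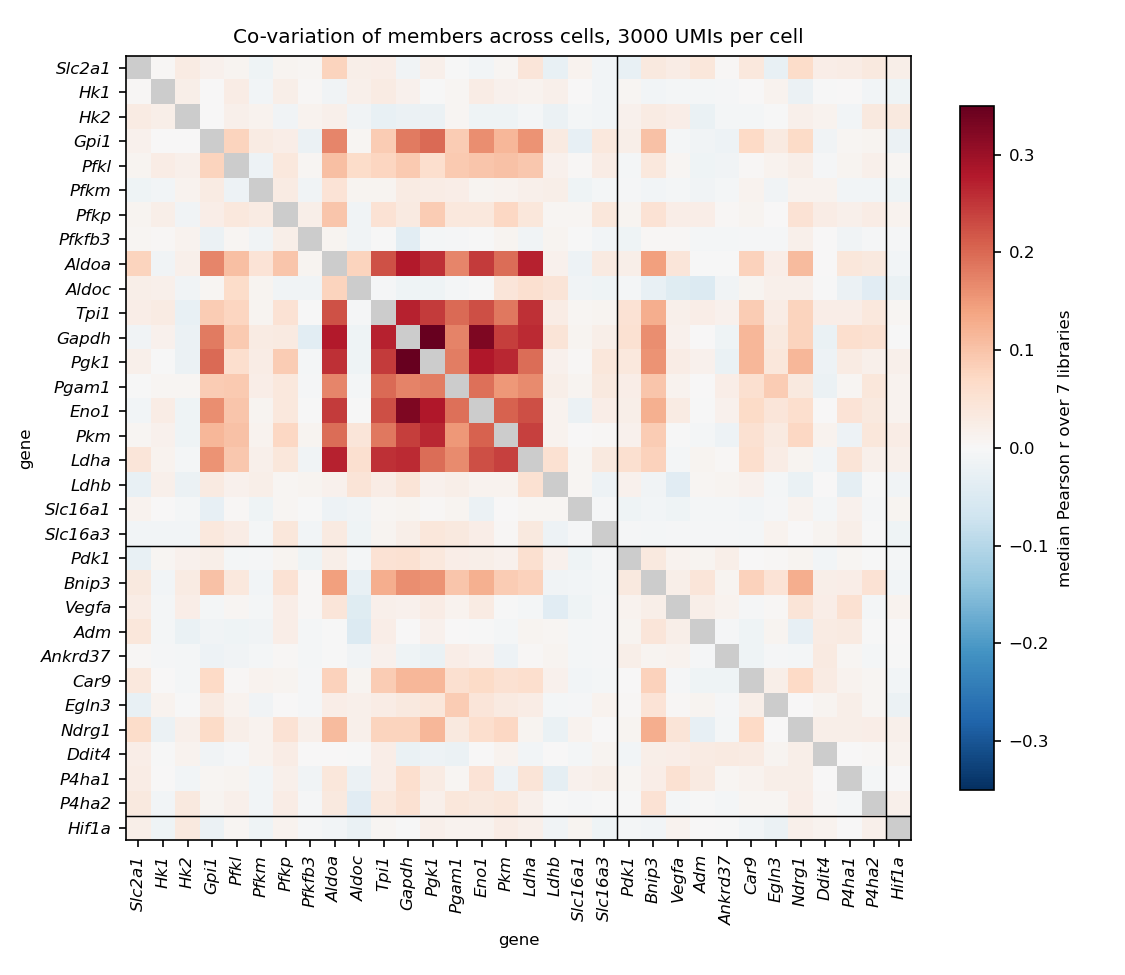
Median over the 7 libraries of Pearson's r across cells for each pair of members (x and y axes, cells thinned to 3000 UMIs), with lines between glycolysis, hypoxia genes and Hif1a. The red block of Aldoa to Ldha contrasts with the pale hypoxia corner, whose 55 pairs reach at most 0.126.

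Most pairs of members had an r near 0, among hypoxia and glycolysis genes alike. The median was 0.0109 over the 55 pairs of hypoxia members and 0.0183 over all 190 pairs of glycolysis members. Several hypoxia genes had a UMI in few cells, which limits r. The highest hypoxia pair was Bnip3 with Ndrg1, at 0.126. The summed hypoxia UMIs correlated with the summed glycolysis UMIs at r of -0.00174 and 0.130 in BRCA1-null, 0.0759 and 0.225 for PyMT, 0.0917 and 0.242 in Neu and 0.197 in 4T1. In each of the 3 types the B library was above the A library, and among cells with an Epcam UMI the value of BRCA1-null A was 0.161. BRCA1-null A had only 222 thinned cells. The 95th percentile of r over all genes there was 0.145 with the glycolysis sum and 0.127 with the hypoxia sum. Cells with 2 or more hypoxia UMIs held a mean of 52.5 glycolysis UMIs in Neu B, against 40.1 in cells with none, and 25.2 against 23.5 in PyMT A. Bnip3 (0.176), Ndrg1 (0.112) and Car9 (0.112) had the highest median r with the glycolysis sum among the hypoxia members, above the 95th percentile of all genes. Hif1a RNA was near 0 with both sums, at -0.0146 and -0.00429. The glycolysis sum also varied with the mitochondrial share, at r of -0.305 to -0.0350, and with the UMIs of the cell before thinning, at -0.0431 to 0.357. The part of these in the result was not tested.

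**Figure D5:**
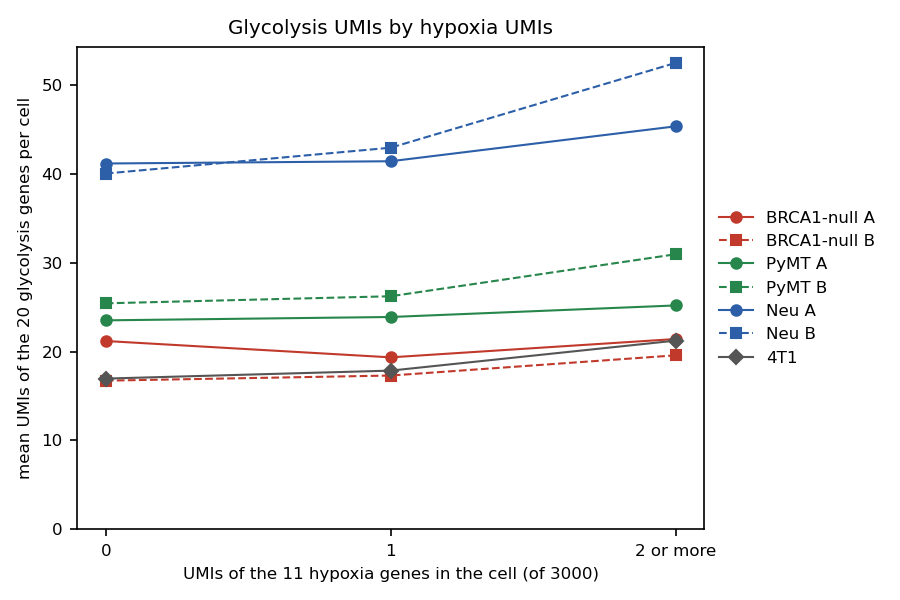
Mean UMIs of the 20 glycolysis genes per cell (y axis, of 3000 UMIs) in cells with 0, 1 and 2 or more UMIs of the 11 hypoxia genes (x axis), 1 line per library. Both Neu lines lie above 40 UMIs throughout, and the gap between cells with 0 and with 2 or more hypoxia UMIs is widest in Neu B and narrowest in BRCA1-null A.

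Of genes outside the set, those that varied most with the hypoxia sum over the 7 libraries were Lgals3 (median r 0.139), Bsg (0.131), Malat1 (0.103), Fam162a (0.100), Emp1 (0.0986), Anxa1 (0.0977), Ero1l (0.0960), Higd1a (0.0931), Junb (0.0930) and Ctsl (0.0922). The median over 3055 genes was -5.86e-04 and the 95th percentile 0.0365. Bsg encodes basigin, the chaperone that carries MCT1 and MCT4 to the membrane, and Fam162a, Ero1l and Higd1a are known HIF targets. With the glycolysis sum, Mif (0.418), Bsg (0.314) and Fam162a (0.293) stood highest, which were looked up after the values were seen.

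Genes of the same pathways outside the set were taken from 4 lists. Their calls are given from the main fit alone, with no library left out. Slc2a3 and Pfkfb4 stand in both the glycolysis list and the hypoxia list and are counted in each. Of 25 other glycolysis and pyruvate genes 18 were tested, and 5 were higher and 1 lower in BRCA1-null against PyMT, 7 higher and 4 lower against Neu, and 0 higher and 1 lower in PyMT against Neu. Over all genes 14.5% and 7.94%, 16.3% and 12.8%, and 7.5% and 9.38% were called higher and lower in these contrasts. Median log2 fold changes were 0.29, 0.06 and -0.86, beside 0.11, 0.11 and -0.06 over all genes. Ldhd, the mitochondrial D-lactate dehydrogenase, was lower in BRCA1-null than in PyMT (log2 fold change -3.91, SE 0.45, adjusted p = 0.00454) and than in Neu (log2 fold change -3.06, SE 0.44, adjusted p = 0.00548). Pdk4, a pyruvate dehydrogenase kinase of fasting and fat use, was higher in BRCA1-null (log2 fold change 6.40, SE 0.91, adjusted p = 0.00772 and log2 fold change 4.52, SE 0.78, adjusted p = 0.00950). Pdk4 was at 14.5 and 9.00 CPM in BRCA1-null and at most 0.768 in PyMT and Neu, near the floor. Its relative Pdk2 was at 35 and 37.3 CPM in Neu and at most 3.64 in the other libraries, and it was lower than in Neu in BRCA1-null (log2 fold change -3.62, SE 0.41, adjusted p = 0.00306) and in PyMT (log2 fold change -3.69, SE 0.41, adjusted p = 0.00482). Eno3, the muscle enolase, was higher in BRCA1-null than in PyMT (log2 fold change 2.90, SE 0.52, adjusted p = 0.0143) and reached 99.6 CPM in 4T1 against at most 6.98 elsewhere.

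Of 7 pentose phosphate genes, the transaldolase gene Taldo1 was lower in BRCA1-null than in PyMT (log2 fold change -1.14, SE 0.25, adjusted p = 0.0227) and than in Neu (log2 fold change -1.52, SE 0.25, adjusted p = 0.00836), Rpia was higher than in Neu (log2 fold change 1.43, SE 0.36, adjusted p = 0.0269), and none was called between PyMT and Neu. Of 7 genes of HIF subunits and oxygen sensing, the hydroxylase gene Egln2 was lower in BRCA1-null than in PyMT (log2 fold change -0.95, SE 0.27, adjusted p = 0.0481) and than in Neu (log2 fold change -1.03, SE 0.27, adjusted p = 0.0313), and no other passed in any contrast. Median log2 fold changes of BRCA1-null against PyMT and Neu were -0.30 and -0.23 for the pentose phosphate list and 0.01 and -0.14 for the oxygen sensing list.

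Of 26 other hypoxia response genes, 8 were higher and 1 lower against PyMT, 7 higher and 2 lower against Neu, and 2 higher and 4 lower in PyMT against Neu, with median log2 fold changes of 0.65, 0.23 and -0.20. The shares over all genes were 14.5% higher and 7.94% lower against PyMT, 16.3% and 12.8% against Neu, and 7.5% and 9.38% in PyMT against Neu, and no difference from them was tested. Angptl4, a secreted inhibitor of lipoprotein lipase, was at 142 and 155 CPM in BRCA1-null, 2.13 and 4.54 for PyMT, 6.23 and 10.4 for Neu, and 11.8 (10.5 to 13.3) in 4T1, and was higher in BRCA1-null than in PyMT (log2 fold change 5.45, SE 0.50, adjusted p = 0.00277) and than in Neu (log2 fold change 4.15, SE 0.47, adjusted p = 0.00299). Lox, the collagen crosslinking oxidase, was at 2.18 and 14.0 CPM in BRCA1-null with no UMI in either Neu library, which is at least 215-fold higher with a floor of 3 UMIs over both Neu libraries. The glucose transporter gene Slc2a3 was at least 84.3-fold higher in BRCA1-null than in PyMT, which held no UMI of it, by the same rule. Pfkfb4, a relative of Pfkfb3, was 68.1 times as high (exact counting interval 18.4 to 569.8), with 2 UMIs in PyMT. Between PyMT and Neu, the endothelin gene Edn1 was higher (log2 fold change 4.36, SE 0.76, adjusted p = 0.0135) and Plod1 (log2 fold change -1.86, SE 0.35, adjusted p = 0.0171) and Ppp1r3c (log2 fold change -6.27, SE 1.11, adjusted p = 0.0143) were lower in PyMT. Ppp1r3c was at 0.0626 and 0.0896 CPM in PyMT A and B, near the floor, and at 1.76 and 11.3 in Neu A and B. Fibroblast and pericyte markers were high in the BRCA1-null libraries that carry the Lox values, and their part in these was not tested.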

How the data were processed

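Single cells were captured with the 10x Chromium 3' platform (version 2 chemistry). Per the labels and the study's methods, the authors made UMI counts per gene and barcode with Cell Ranger on its prebuilt mm10 reference, and the deposited counts are raw. The processing notes name versions 2.2.0 and 3.0.2, and STAR with no version. The unit analysed is the count. The authors' combined matrix of the same libraries, made without depth normalization, was not used here. Sequences are RefSeq's (GRCm38.p6).

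UMIs of the kept cells were summed per library. The 6 libraries of the 3 types were fitted together with edgeR 4.0.16 (R 4.3.3, TMM scaling, filterByExpr, quasi-likelihood F-test, Benjamini-Hochberg, threshold 0.05), which left 3 residual degrees of freedom, and the code was tested on simulated data. CPM are TMM-scaled unless called plain. 4T1 entered no test, and its intervals are exact Poisson 95% intervals. Intervals cover counting error only. Libraries held 5578911 to 37693300 UMIs in kept cells. Isozyme shares were compared by an exact permutation test. Python 3.11.15 with scipy 1.17.1 and pandas 2.3.3 was used for the rest. No doublet caller was run.

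The study's methods place the replicates of each type in a second sequencing batch but tie no letter to a batch. Here the replicate letters were read as the batches, which pairs the libraries. Deviations from the group means of same-lettered libraries correlated across genes at 0.0618 and 0.114 for BRCA1-null with PyMT and with Neu, and at 0.170 for PyMT with Neu. The letter as a block was an alternative, as were other scaling, DESeq2 1.42.0, no filter on counts, other cell filters (every barcode, the filter of the study at 3 MADs, 10% mitochondrial UMIs, Epcam cells) and omission of each library.

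The members and lists were chosen with earlier results of these data known. Values per library are given for members called with an absolute log2 fold change of at least 1 or in an isozyme family. From each list up to 3 genes with the smallest adjusted p per contrast are named, and 10 genes by median r with the hypoxia sum. A listed gene that this rule would name is not reported here.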

Additional observations from a re-analysis of the deposited data

How the results depend on the processing

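No call reversed its direction under any alternative tried. Of the 37 calls, 5 were lost with total UMIs alone, 1 each at a 10% mitochondrial limit, among cells with an Epcam UMI and with the replicate block, and 0 with DESeq2's size factors, DESeq2's Wald test, no filter on low counts, the filter of the study or every barcode. The block, which uses the pairing by batch, left 5 members higher and 10 lower against PyMT, 6 and 10 against Neu, and 5 and 2 in PyMT against Neu. Over all 13950 genes it called 1794 and 1077, 2082 and 1746, and 1018 and 1218 in these contrasts. It lost the call of Pfkfb3 against PyMT, gained Ndrg1 in the contrasts with PyMT and changed no other call. With PyMT against Neu, DESeq2's Wald test called 5 members lower and the fit without a filter 4, against 2, and of the glycolysis genes 4 and 3, against 1. Against Neu, DESeq2's Wald test called 11 glycolysis genes lower in BRCA1-null, against 7. Over all genes it called 1777 lower in PyMT against Neu and 2107 lower in BRCA1-null against Neu, where edgeR called 1309 and 1787. The fit without a filter called 1957 of 20388 genes lower in PyMT against Neu. Leaving out 1 library at a time gave 1 to 8 members higher and 2 to 11 lower against PyMT, 2 to 7 and 4 to 13 against Neu, and 0 to 5 and 0 to 6 in PyMT against Neu. These fits leave 1 sample in a type, which is assumed to vary like the other types. The difference in the Hk2 share (BRCA1-null minus Neu) then ran from 4.26 to 50.9 percentage points, that of Slc16a3 from 8.39 to 23.4, and that of Ldhb (BRCA1-null minus PyMT) from 11.8 to 19.6. The median r of the glycolysis and hypoxia sums was 0.130 and ran from 0.111 to 0.164 with 1 library left out. Counts of 1 to 12 UMIs limit Adm in PyMT and Slc16a3 in Neu.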

Other observations

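Within the BRCA1-null libraries, levels were also taken apart by cells with and without an Epcam UMI, and are given as plain CPM of summed UMIs with no test. In BRCA1-null B, Aldoc was at 83.1 CPM in Epcam cells and 25.0 in the others, and Gapdh at 2751 and 1362. In BRCA1-null A the same pairs were 205 and 140.3 for Aldoc and 2753 and 2343 for Gapdh. Adm was close in both kinds of cell, at 8.19 and 10.6 CPM in BRCA1-null A and 14.8 and 13.9 in BRCA1-null B.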
